A study of Mus musculus with 2 samples.

Results

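The barcodes described here are 79 droplets that carried lung epithelial transcripts in a sort made for melanoma cells. They were chosen from the RNA matrix as barcodes with at least 200 detected genes, at most 25% of UMIs (unique molecular identifiers, each counting 1 captured transcript) from mitochondrial genes, and at least 3 UMIs summed over Sftpc, Sftpb, Sftpa1, Sftpd, Lamp3, Cldn18, Ager and Scgb1a1. They made up 0.495% of 15961 RNA barcodes and 0.498% of the 15868 that passed the filter on genes and mitochondrial UMIs. Another 4 barcodes with at least 3 UMIs of these genes failed that filter and were not used here.

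The study grew B16F10 cells, an established mouse melanoma line, in the lungs of wild-type (WT) mice and in the lungs and bones of mice lacking Prf1, the gene for perforin. Lung tumours were resected and kept 20 min in a 37 °C digest, knees were crushed and kept 30 min at the same temperature, and GFP+CD45-DAPI- cells were sorted by flow cytometry. The 3 sources were marked with TotalSeq-B hashtag antibodies (WT_lung, PRF_lung and PRF_bone), pooled and run once, giving 1 RNA library and 1 hashtag library. Each source is therefore a single pool, how many mice it held is not stated in the labels, and no test between sources or barcode sets was possible.

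Alveoli are lined by 2 kinds of epithelial cell. Type 1 pneumocytes are thin cells for gas exchange, and type 2 pneumocytes make, store and recycle surfactant, the lipid and protein film that keeps alveoli from collapsing, and renew the alveolar lining. Surfactant proteins A and D also bind microbes, and airway club cells secrete the Scgb1a1 protein.

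RNA and hashtag matrices shared 4204 barcodes, and 11757 RNA barcodes (73.7%) had no listed hashtag counts. Comparison barcodes were the 15353 that passed the same filter with 0 UMIs of the 8 genes, at a median of 2028 UMIs and 1099 genes. A second set of 101 comparison barcodes also had 0 UMIs of the melanoma genes Pmel, Mlana and Dct, and is called marker-poor. Lung epithelial barcodes were much shallower, with 357 UMIs in the lowest, 595 in the median and 4458 in the highest, and 204, 326 and 1781 genes. Of the 79, 66 (83.5%) had under 1000 UMIs, against 1581 (10.3%) of the comparison barcodes. Mitochondrial UMIs made up 3.35% of the median lung epithelial barcode, with a range of 1.10% to 8.01%, and 2.41% of the median comparison barcode. How far depth moved the shares of barcodes given below was not tested except where thinned values are given.

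The 8 genes that chose the barcodes split them sharply by UMI number. Among filtered barcodes, 429 had 1 UMI of the 8 genes, 7 had 2, 4 had 3, none had 4 to 19 and 75 had 20 or more. Just inside the limit, the 4 barcodes with exactly 3 UMIs had 989 to 3174 UMIs in all, 0 to 1 UMIs of type 2 genes other than the 8, and 13 to 50 UMIs of Pmel, Mlana and Dct (1.31% to 1.58% of their UMIs). Just outside, the 7 barcodes with 2 had 1086 to 5401 UMIs, 0 to 1 UMIs of those type 2 genes, and 10 to 36 UMIs of the 3 melanoma genes (0.652% to 1.87%). The 4 barcodes at the limit therefore go against the name lung epithelial. Some results are given with and without them, and most levels of single genes and gene lists only with them. The other 75 held 3, 29 and 77 UMIs (lowest, median and highest) of type 2 genes outside the 8.

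Surfactant protein transcripts dominated the chosen barcodes, which is a description of the choice and not a finding. The 8 genes made up 18.8% of all their UMIs, and 0.0945%, 26.6% and 47.1% of the UMIs of the lowest, median and highest barcode. Sftpc, which encodes the small hydrophobic surfactant protein C, had 2, 131 and 357 UMIs in the lowest, median and highest barcode, and its 10877 UMIs were 85.0% of those of the 8 genes. It had more UMIs than any other of the 8 in all 75 barcodes above the limit. Sftpa1 (surfactant protein A) had 1183 UMIs in 77 barcodes, with a median of 13 and a maximum of 45. Sftpd (surfactant protein D) had 308 UMIs in 72 barcodes and Sftpb, whose product is needed for surfactant films to form, had 303 in 73. Lamp3, a membrane protein of the lamellar bodies that store surfactant, and Cldn18, a tight junction protein, had 32 UMIs in 27 barcodes and 34 in 26. Ager, best known from type 1 pneumocytes, had 48 UMIs in 31 barcodes and at most 4 in any. Scgb1a1 had 8 UMIs in 7 barcodes.

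**Figure D1:**
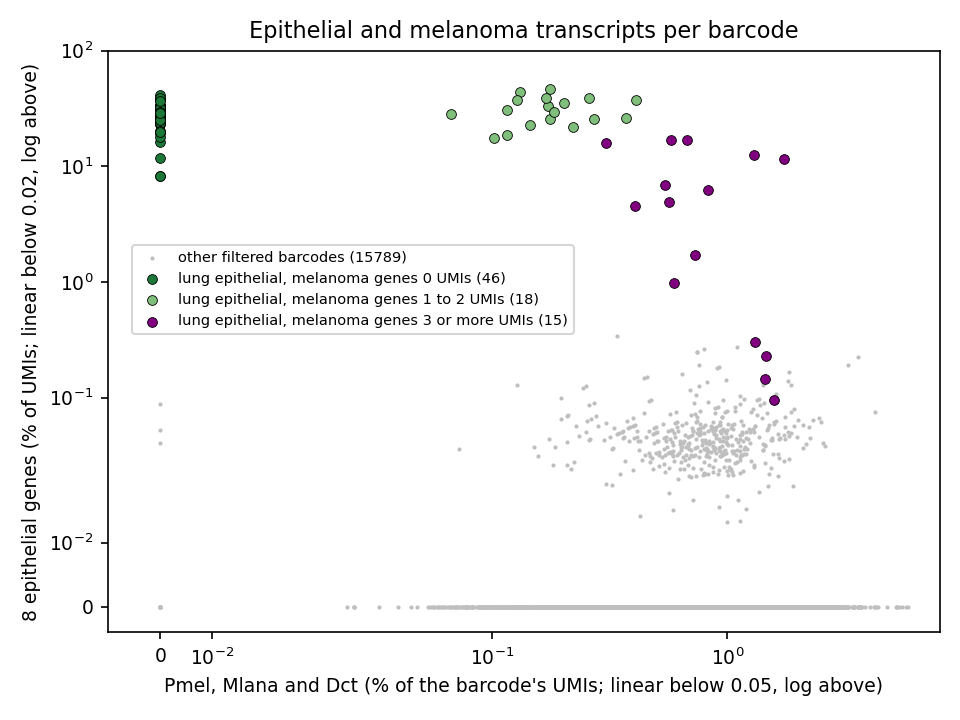
Each point is 1 filtered barcode, with the share of its UMIs from Pmel, Mlana and Dct on the x axis and from the 8 epithelial genes on the y axis (both linear near 0 and logarithmic above). The 46 lung epithelial barcodes with 0 melanoma UMIs stand at the left edge, and the 15 with 3 or more run from the upper group down to the 4 barcodes at the limit of 3 UMIs, which touch the other barcodes.

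Type 2 pneumocyte genes that did not choose the barcodes were present throughout them. Of 24 such genes listed, 23 were in the matrix and 22 had at least 1 UMI, and 76 of the 79 barcodes carried at least 1. Their summed level was 34997 CPM (UMIs per 1000000 UMIs; 95% Poisson interval 33605 to 36431), against 52.9 in the comparison barcodes and 296 in the marker-poor barcodes. Without the 4 barcodes at the limit the level was 39348 CPM. These genes share barcodes with Sftpc, so the ratio of 661 to the comparison (counting interval 622 to 704) describes the chosen barcodes and is not a test of them.

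Across the whole transcriptome, 1464 genes averaged 100 CPM or more between the 79 and the comparison barcodes. Of these, 79 (5.40%) were at least 4-fold higher in the lung epithelial barcodes, 7 of them among the 8 choosing genes, and 35 (2.39%) were at least 4-fold lower. Without the 4 barcodes at the limit the numbers were 91 and 62, and with a minimum of 2 UMIs of the 8 genes they were 58 and 7. The 46 barcodes with 0 melanoma UMIs alone gave 148 and 259. The choice of barcodes used this contrast, so nothing is read from these shares, and genes seen in 1 set alone entered only because they were high there. The median log2 ratio over the 1464 genes was -0.51. It was -0.16 with mitochondrial and choosing-gene UMIs left out of the totals, a shift of 0.35.

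**Figure D2:**
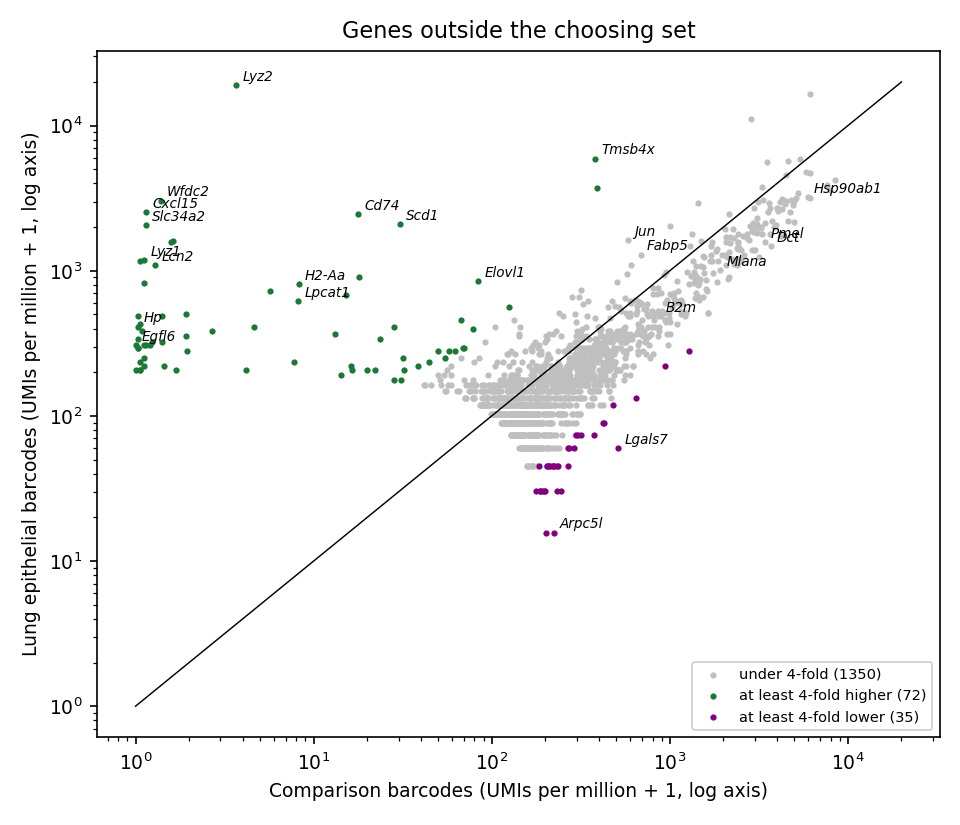
Each point is 1 tested gene outside the 8, with its level in the comparison barcodes on the x axis and in the 79 lung epithelial barcodes on the y axis (CPM with 1 added, log axes; the line marks equal levels). The 72 genes at least 4-fold higher include a column near 0 in the comparison barcodes with Wfdc2, Cxcl15, Slc34a2 and Lyz1, while Lyz2 has the highest level among them.

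Genes for secreted proteins are given first. Lyz2, a lysozyme made by type 2 cells and by myeloid cells, had 1298 UMIs in 72 barcodes and at most 56 in 1, for 19078 CPM against 2.68. Wfdc2, a secreted protease inhibitor of airway and alveolar epithelium, had 207 UMIs in 68 barcodes (3043 CPM against 0.383). Cxcl15, a chemokine of lung epithelium also called lungkine, had 172 UMIs in 65 (2528 CPM against 0.147). Lyz2, Wfdc2 and Cxcl15 were detected in 91.1%, 86.1% and 82.3% of the lung epithelial barcodes. Chil1, a secreted chitinase-like protein, had 80 UMIs in 46 barcodes and Hc, which encodes complement component 5, had 56 in 38. Lcn2, an iron-siderophore binding protein that is also induced in injury, had 74 UMIs in 37 barcodes (1088 CPM against 0.295). Egfl6, a secreted matrix protein, had 21 UMIs in 19 barcodes and 0 in the comparison barcodes, and Sfta2, a surfactant-associated protein, had 23 in 21.

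Other genes included transporters and surfactant-processing enzymes. Slc34a2, a phosphate transporter, had 140 UMIs in 58 barcodes (2058 CPM against 0.147). Napsa, an aspartic protease that processes pro-surfactant protein B, had 107 UMIs in 53 barcodes (1573 CPM against 0.589). Abca3, the lipid pump of lamellar bodies, had 25 UMIs in 20 barcodes, for 367 CPM against 12.2. Cbr2, a carbonyl reductase of lung epithelium, had 109 UMIs in 48 barcodes, and S100g, a calcium-binding protein, had 33 in 24. Cd36, a fatty acid transporter, had 26 UMIs in 23. The epithelial tight junction gene Cldn3 had 20 UMIs in 17, and the sodium pump subunit gene Atp1b1 had 29 in 26. The autophagy-related gene Dram1 (33 UMIs in 28 barcodes), Car8 (20 in 16) and the receptor phosphatase gene Ptprf (21 in 15) were also among the 20 genes with the highest ratios, as were Lyz1 and Hp, described below. Abca3 was not.

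**Figure D3:**
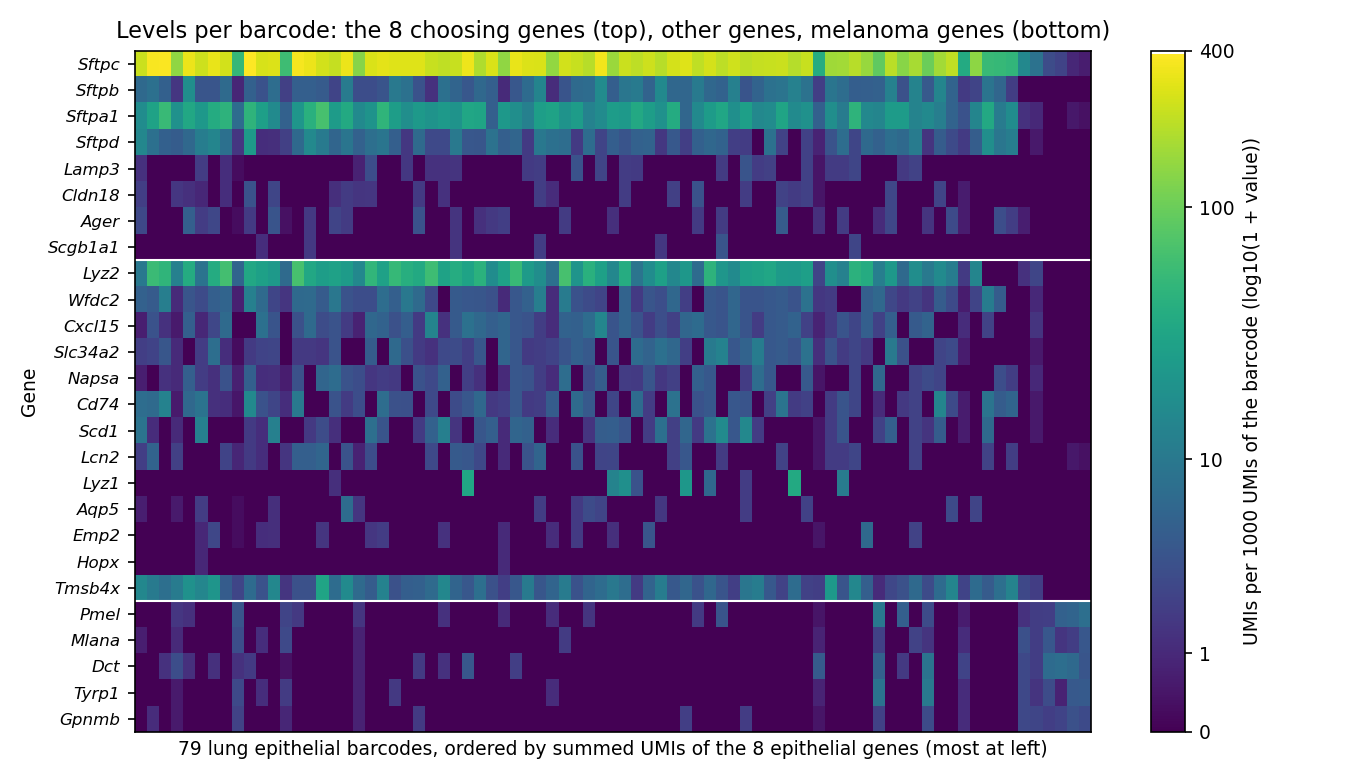
Rows are genes and columns the 79 lung epithelial barcodes, ordered by summed UMIs of the 8 choosing genes, and colour gives UMIs per 1000 UMIs of the barcode on a log10(1 + value) scale. Sftpc, Sftpa1, Lyz2 and Tmsb4x fill nearly every column but the last, and Lyz1 is seen in 10 columns. The melanoma rows at the bottom are filled in the last columns, the 4 barcodes at the limit and some above it, and in scattered others.

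The 2 mouse lysozyme genes were distributed differently. Lyz1 had 81 UMIs in 10 of the 79 barcodes, with 1, 8 and 20 UMIs in the lowest, median and highest of the 10, while Lyz2 was detected in 72. Lyz1 was at 6 or more UMIs in 6 barcodes and at 1 to 3 in 4. In the same 10 barcodes Lyz2 had 5, 14 and 24 UMIs (lowest, median and highest), and in the other 65 above the limit it had 0, 16 and 56. The barcode with the most Lyz1 had 20 UMIs of it beside 13 of Lyz2, and another had 16 beside 15. Lyz1 barcodes spanned 477 to 824 UMIs in total, had 0 melanoma UMIs in 9 of 10, and carried WT_lung in 4, PRF_lung in 3 and no listed hashtag in 3. The genes are near-identical neighbours, so how the authors' counting divided reads between them is uncertain.

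The sequences just upstream of both genes are shown because they are nearly the same letters for genes found in 10 and 72 barcodes. They are the 100 bases before the annotated start, from RefSeq on GRCm38.p6, both on the minus strand of chromosome 10, at chr10:117292869-117292968 for Lyz1 and chr10:117282273-117282372 for Lyz2. Aligned without gaps they are identical at 92 of 100 positions, and capitals mark the 8 positions that differ.
Lyz1: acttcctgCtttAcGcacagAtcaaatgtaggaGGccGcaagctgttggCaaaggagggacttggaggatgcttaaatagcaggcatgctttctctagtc
Lyz2: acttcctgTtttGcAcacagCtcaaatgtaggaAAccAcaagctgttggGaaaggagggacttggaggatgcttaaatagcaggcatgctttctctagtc

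Lipid synthesis genes were higher in sum, with the largest ratios in a few members. The list of 22 genes for fatty acid, sterol and phospholipid synthesis stood at 6702 CPM (6101 to 7347) against 1869 in the comparison barcodes. The median log2 ratio of its 9 tested genes was 1.18, against -0.51 over all tested genes. Some of the 9 were tested only because of their level in the 79. Scd1, Lpcat1 and Elovl1 were at least 4-fold higher, and each passed the expression minimum through its level in the 79 alone, so their number is not set against the 5.40% of all tested genes. Scd1, which desaturates stearoyl-CoA, had 142 UMIs in 47 barcodes for 2087 CPM against 29.4. Lpcat1, which makes the dipalmitoyl phosphatidylcholine of surfactant, had 42 UMIs in 30 barcodes for 617 CPM against 7.19. Elovl1, a very-long-chain fatty acid elongase, was at 853 CPM against 83.0. Fabp5, a fatty acid binding protein, was at 1293 CPM against 687. Fasn, fatty acid synthase, had 12 UMIs (176 CPM against 77.2). Srebf1 had 0, but its 11.7 CPM in the comparison barcodes was below the 44.1 CPM that 0 UMIs allow.

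Antigen presentation genes of class II, which type 2 pneumocytes are known to express, were carried by 69 of the 79 barcodes. The 7 genes summed to 4571 CPM (4077 to 5109), 94.0 times the 48.6 CPM of the comparison barcodes. Cd74, the invariant chain, had 167 UMIs in 57 barcodes (2455 CPM against 16.8). H2-Aa had 55 UMIs in 37, H2-Ab1 49 in 33 and H2-Eb1 28 in 18. Myeloid cells share Cd74, class II and Lyz2, and the markers of such cells were at 0: the 16 macrophage and monocyte genes and the 7 neutrophil genes had 0 UMIs, which allows up to 3 UMIs or 44.1 CPM, and so did the pan-leukocyte gene Ptprc. Class I genes summed to 2440 CPM against 1991, with none of 4 tested genes past 4-fold. Within class I, H2-K1 was at 661 CPM against 281, while its partner B2m was at 485 against 870.

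Interferon response genes stood at 2028 CPM (1704 to 2396) against 3379, and none of 4 tested genes passed 4-fold. Their median log2 ratio of -0.67 was close to the -0.51 of all tested genes. Ifitm3, an antiviral membrane protein, was at 441 CPM against 1002, Bst2 (tetherin) at 279 against 543, and Ifi27 at 691 against 809. Prf1 itself had 0 UMIs in both sets.

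Type 1 pneumocyte genes were sparse. The 21 genes outside the choosing set summed to 87 UMIs, 1279 CPM against 84.6, with at most 6 UMIs in a barcode, and no barcode above the limit had more type 1 than type 2 UMIs. Aqp5, a water channel, had 22 UMIs in 16 barcodes, Emp2 22 in 17 and the chloride channel gene Clic3 14 in 13. The defining genes Hopx, Pdpn and Rtkn2 had 2, 1 and 0 UMIs. Transitional alveolar genes, which rise when type 2 cells turn towards type 1 after injury, summed to 2161 CPM against 281, but 74 of their 147 UMIs were Lcn2. Krt18 had 14 UMIs in 10 barcodes, Clu 14 in 7 and Krt8 6 in 5, while Cldn4 had 0.

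Airway epithelium left few transcripts. Of 13 club and secretory genes, 3 had any UMI: Hp, haptoglobin (28 UMIs in 20 barcodes), Gsta4 (13) and Selenbp1 (12). Scgb3a2, Cyp2f2 and Bpifa1, defining genes of airway secretory cells, had 0. The ciliated list had 3 UMIs, with 0 of the ciliary regulator Foxj1, and the basal list had 0. Pan-epithelial genes stood at 4542 CPM against 4.68, of which Wfdc2 was 207 of 309 UMIs. Epcam, an epithelial adhesion molecule, had 12 UMIs in 12 barcodes and Irx1, a homeobox gene, 13 in 13. Nkx2-1, the transcription factor of lung epithelium, had 6 in 6 and 0 in the comparison barcodes. Cdh1 (E-cadherin) had 0 in the 79.

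**Figure D4:**
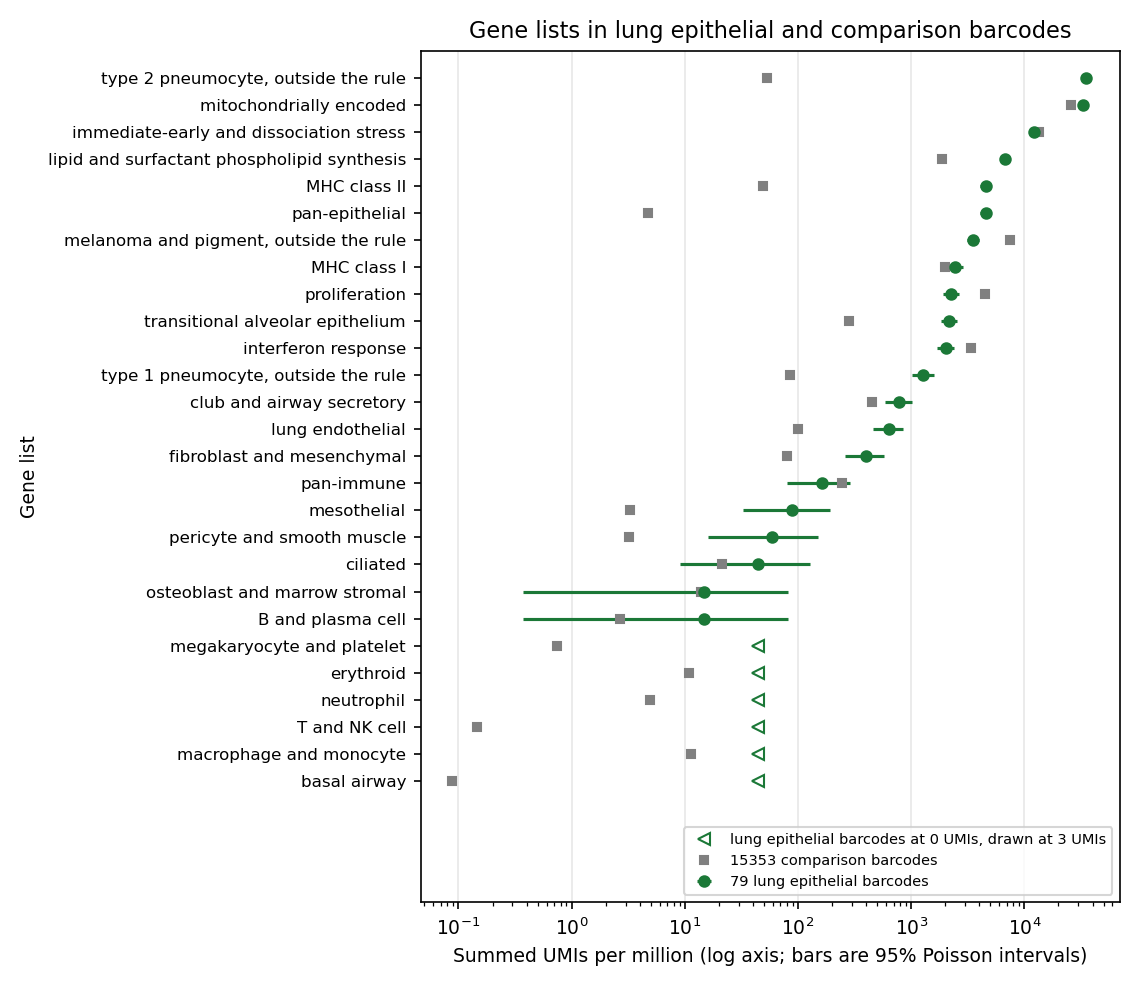
Each row is a gene list, with its summed CPM in the 79 lung epithelial barcodes (circles, 95% Poisson bars) and in the 15353 comparison barcodes (squares) on a log axis, and open triangles mark lists with 0 UMIs, drawn at the 3 UMIs that a count of 0 allows. Type 2, pan-epithelial and class II lists stand farthest to the right of their squares, while the melanoma, proliferation and interferon lists stand to the left.

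Markers of other cell types in the sort were few. The 16 lung endothelial genes had 43 UMIs in 11 barcodes (632 CPM against 99.2), with 14 in 1 barcode and 29 in 3, and included Cldn5 (6 UMIs) and Pecam1 (3). The 12 fibroblast genes had 27 UMIs in 15 barcodes, 10 of them Npnt, an integrin ligand that alveolar epithelium also makes, and Col1a1 and Col1a2 had 0. The marker-poor barcodes differed in this, at 7322 CPM of fibroblast and 4234 CPM of osteoblast and marrow stromal genes, against 397 and 14.7 CPM in the 79. The T and NK cell, erythroid and platelet lists had 0 UMIs, B cell and osteoblast lists 1 each, and the pan-immune list 11, all of them Arhgdib, which was at 239 CPM in the comparison barcodes.

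Several genes present in both sets also differed in level. Tmsb4x, which encodes the actin-binding peptide thymosin beta 4, had 403 UMIs in 75 barcodes, 5923 CPM against 379 (ratio 15.6, counting interval 14.1 to 17.3). Some immediate-early transcription factor genes, which tissue digestion is known to induce, were higher. Jun was at 1617 CPM against 584, Fos at 1102 against 607, Jund at 735 against 314 and Egr1 at 397 against 77.3. Fos, Jund and Egr1 were named after their values were seen, and the other immediate-early genes are not given. Heat-shock genes of the same list were mixed, with Hsp90ab1 at 3204 CPM against 5960, Hsp90aa1 at 1161 against 2506, Hspa8 at 1587 against 2062 and Dnajb1 at 147 against 104. The whole list of 20 genes stood at 12082 CPM against 13502. Of its 15 tested genes only Egr1 was at least 4-fold higher, a share near the 5.40% of all tested genes. The median log2 ratio of these 15 was 0.86, against -0.51 over all tested genes. Egr1 passed the expression minimum only through its level in the 79, so nothing is read from this share or this median. Proliferation genes were at 2249 CPM against 4455, and Stmn1, a microtubule regulator, and Top2a, topoisomerase 2, were at 294 against 372 and 147 against 165. The genes at least 4-fold lower rested on few transcripts: 29 of the 35 had 5 or fewer UMIs in the 79 barcodes. The lowest ratios were those of Arpc5l and Pclaf (1 UMI each), Lgals7 (4 UMIs, 58.8 CPM against 512), and Metrn, Cst6, Cbx3, Josd2, Zfas1, Got2 and Smarca5 (2 UMIs each). Their counting intervals were wide, as for Lgals7 at 0.0313 to 0.294 times the comparison level.

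Melanoma transcripts were not detected in most of the 79 barcodes, which are shallow. Among the 16 with at least 500 genes, 1 had 0 UMIs of the 3 melanoma genes named next. Pmel and Mlana encode melanosome proteins and Dct a melanin-synthesis enzyme. Their sum was 0 UMIs in 46 barcodes (58.2%, 95% Clopper-Pearson interval 46.6% to 69.2%), 1 to 2 UMIs in 18 (22.8%) and 3 or more in 15 (19.0%, 11.0% to 29.4%). Depth limits such counts, so the 819 comparison barcodes between the quartiles of lung epithelial depth (530 to 843.5 UMIs) were set beside them: 31 of these (3.79%) had 0 UMIs of the 3 genes, and their median was 6. Over all comparison barcodes, 101 of 15353 (0.658%) had 0.

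Summed over the 79, the 3 melanoma genes were at 4071 CPM (3606 to 4580) against 9020 in the comparison barcodes, and at 2728 CPM without the 4 barcodes at the limit. The mean of the barcodes' own shares was 2209 CPM, and the 15 barcodes with 3 or more held 255 of the 277 UMIs. Pmel had 107 UMIs in 23 barcodes, Dct 101 in 23 and Mlana 69 in 18. The 4 barcodes at the limit held 112 of the 277 UMIs of these 3 genes. Pmel, Mlana and Dct made up 38.6%, 24.9% and 36.5% of the 3-gene UMIs in lung epithelial barcodes and 37.8%, 21.3% and 40.8% in comparison barcodes. Of 18 further pigment genes, 14 had a UMI. Their sum was 3528 CPM against 7407, with Tyrp1, a melanin-synthesis enzyme, at 1117 against 2288 and Gpnmb, a melanosomal glycoprotein, at 823 against 1450. Tyr, which catalyses the first step of melanin synthesis, had 2 UMIs. Of the 240 UMIs of these 18 genes, the 4 barcodes at the limit held 83.

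The barcodes with 3 or more melanoma UMIs had more UMIs in all and smaller epithelial shares than the others, while those with 0 and with 1 to 2 had like epithelial shares. The classes were cut on UMI number, which deeper barcodes reach more readily. Differences in depth and epithelial share between them are therefore partly set by the cut. Median depth was 550.5 UMIs with 0 melanoma UMIs, 642 with 1 to 2 and 1732 with 3 or more. Type 2 genes outside the 8 made up 5.27%, 5.72% and 0.845% of all UMIs in these classes, and pigment genes outside the 3 made up 0.0636%, 0.0938% and 0.740%. Of the 15 barcodes with 3 or more melanoma UMIs, 4 were those at the limit and 11 had 20 to 325 UMIs of the 8 epithelial genes. Those 11 held both sets, with 1.14% of UMIs from type 2 genes and 0.611% from pigment genes outside the choosing sets. In 6 of the 11, the share of Pmel, Mlana and Dct was at or above 0.577%, the 25th percentile of the comparison barcodes.

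Individual barcodes show how far the 2 sets mixed. The deepest, with 4458 UMIs and 1781 genes, had 278 UMIs of the 8 epithelial genes, 35 of other type 2 genes and 37 of the 3 melanoma genes. Another with 1917 UMIs had 325, 39 and 11, and another with 3320 UMIs had 231, 27 and 18. At the other end, 1 with 2032 UMIs had 20, 16 and 12. A shallow barcode of 919 UMIs had 106, 21 and 16, the highest melanoma share of the 79 at 1.74%. Of the 75 above the limit, 10 had at least 1000 UMIs and 8 of these had 3 or more melanoma UMIs, while 3 of the other 65 did and 45 of those 65 had 0. Whether such droplets held more than 1 cell was not tested, and no doublet caller was run.

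Epithelial transcripts were also found at a low rate outside the 79. Among 15789 other filtered barcodes, 436 (2.76%, 2.51% to 3.03%) had a UMI of the 8 genes at a median depth of 2036 UMIs. None could have more than 2, because barcodes with 3 or more were chosen. With every barcode thinned to 300 UMIs, 68 of 15762 (0.431%) had a UMI of the 8 genes, 27 shallower barcodes being left out. The same thinning left at least 1 such UMI in 77 of the 79. That number and the shares given next rest on the UMIs that chose the barcodes, so they describe the choice and are not a finding. Of all filtered-barcode Sftpc UMIs, 97.0% were in the 79, as were 96.7% of Sftpa1, 96.3% of Sftpd and 96.5% of Sftpb. Ager and Scgb1a1 stood apart, with 77.4% and 27.6%. Scgb1a1 had 21 UMIs in other barcodes and 8 in the 79, so it was 4.74% of the 8-gene UMIs outside and 0.0625% inside.

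Every lung epithelial barcode with listed hashtag counts carried a lung hashtag. Of the 79, 55 (69.6%, 58.2% to 79.5%) were listed in the hashtag matrix, against 4117 of 15789 other filtered barcodes (26.1%). A barcode was assigned to a source where its largest hashtag count was at least 2 times the second. By this rule 41 were WT_lung, 14 were PRF_lung, none were PRF_bone and none were ambiguous, while 307 (7.46%) of the other listed barcodes were ambiguous. The 0 PRF_bone barcodes among 435 allow a share of up to 0.690% by the 3-count floor and 0.844% by the Clopper-Pearson interval. Both lie within the interval for PRF_lung given below, so a difference between these 2 sources was not detectable at this depth. Without the 4 barcodes at the limit the counts were 40, 14 and 0.

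**Figure D5:**
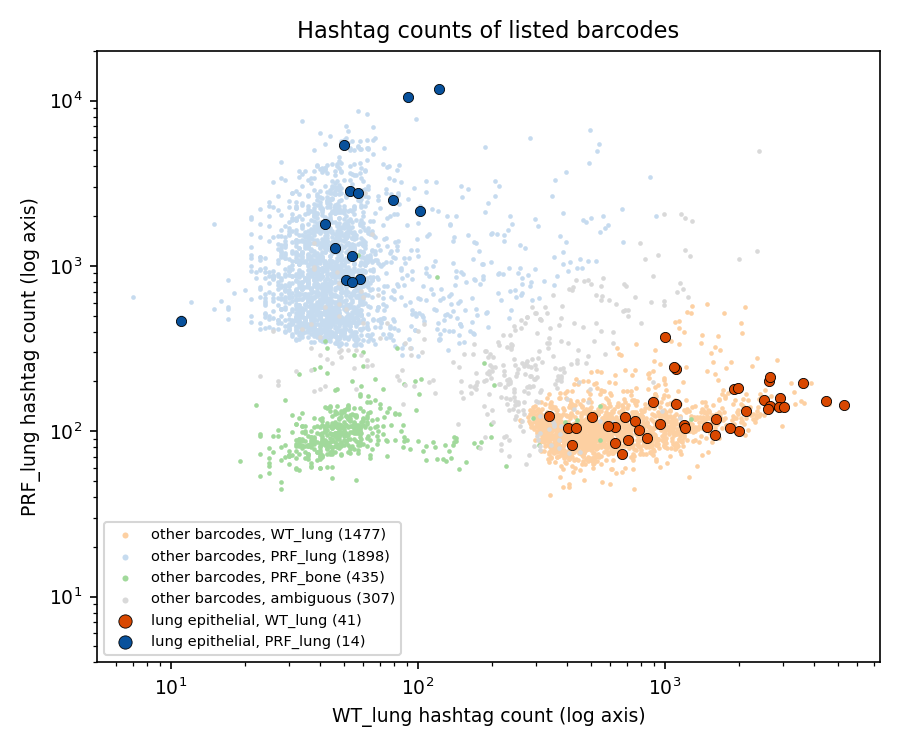
Each point is 1 barcode listed in the hashtag matrix, with its WT_lung count on the x axis and PRF_lung count on the y axis (log axes), coloured by assigned source. The 41 WT_lung and 14 PRF_lung lung epithelial barcodes lie along the arms of the other barcodes of their source and spread over most of the range of their own hashtag.

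Among barcodes listed in the hashtag matrix, the 2 lung sources differed in their share of lung epithelial barcodes. Lung epithelial barcodes were 41 of 1518 WT_lung barcodes (2.70%, 1.95% to 3.65%) and 14 of 1912 PRF_lung barcodes (0.732%, 0.401% to 1.23%). Both intervals cover counting error only, and they do not overlap. Listing was more frequent for the 79 (69.6%) than for other filtered barcodes (26.1%), so these values are not shares of each whole source. Of the 46 barcodes with 0 melanoma UMIs, 23 were WT_lung, 10 PRF_lung and 13 unlisted. With 1 pool per source, mice, digestion and sort cannot be told apart from genotype. Unlisted barcodes included 24 of the 79, or 0.205% of 11696. The WT_lung hashtag read 338, 1197 and 5320 counts (lowest, median and highest) in the 41 WT_lung barcodes, against a median of 564 in other WT_lung barcodes. In the 14 PRF_lung barcodes their own hashtag read 466, 1965.5 and 11796, against a median of 871.5. Outside the 79, barcodes with 1 or 2 UMIs of the 8 genes were 3.05% (2.23% to 4.06%) of WT_lung, 3.53% (2.75% to 4.46%) of PRF_lung and 6.67% (4.51% to 9.43%) of PRF_bone barcodes (10.8, 13.4 and 22.1 CPM), with median depths of 2673, 2559 and 2995 UMIs. The origin of these UMIs was not tested.

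Between the hashtags, the lung epithelial barcodes of PRF_lung carried fewer melanoma UMIs. The 3 genes had 156 UMIs in 18 of 41 WT_lung barcodes (4130 CPM) and 4 UMIs in 4 of 14 PRF_lung barcodes (509 CPM), and 6 WT_lung but 0 PRF_lung barcodes had 3 or more. Median depth was 687 and 514.5 UMIs, and none of the 14 reached 1000. Of the 156 melanoma UMIs, 50 were in the 1 WT_lung barcode at the limit, and without it 5 WT_lung barcodes had 3 or more. WT_lung levels over all 41 barcodes include it, here and below. Type 2 genes outside the 8 were at 36486 CPM in WT_lung and 59048 in PRF_lung, a ratio of 1.62 (1.45 to 1.80). Among barcodes with 0 melanoma UMIs alone, the values were 53866 and 61343 CPM (ratio 1.14, 0.997 to 1.299), an interval that includes equal levels. Lyz2 is 1 of these type 2 genes and held 735 of their 1378 UMIs in WT_lung and 266 of 464 in PRF_lung. Its level is therefore part of the same result, at 19461 and 33851 CPM over all (ratio 1.74, 1.51 to 2.00). In barcodes with 0 melanoma UMIs it was at 29162 and 33851 CPM (1.16, 0.968 to 1.39).

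Jun, a subunit of the AP-1 transcription factor, had 44 UMIs in 20 of 41 WT_lung barcodes (1165 CPM) and 36 UMIs in 11 of 14 PRF_lung barcodes (4581 CPM), a ratio of 3.93 (2.46 to 6.25), with at most 6 and 7 UMIs in any. In barcodes with 0 melanoma UMIs the levels were 1389 and 4676 CPM, from 19 and 25 UMIs. Fos did not share this, at 1324 and 891 CPM (ratio 0.673, 0.257 to 1.49). Slc34a2 was at 2092 and 4581 CPM (ratio 2.19, 1.43 to 3.29), and at 2997 and 5050 (1.69, 0.997 to 2.81) with 0 melanoma UMIs. Class II genes were at 5137 and 4581 CPM (ratio 0.892, 0.607 to 1.28), and at 7674 and 4301 CPM (0.561, 0.341 to 0.887) in barcodes with 0 melanoma UMIs. The first interval includes equal levels and the second does not. Of the 105 WT_lung UMIs behind the second, 2 barcodes held 14 and 11, and such clustering makes a counting interval too narrow. The restriction to 0 melanoma UMIs was also chosen after seeing the data, so no difference is read from it. Class I genes were at 2489 and 2672 CPM (1.07, 0.635 to 1.74), and at 2924 and 2057 (0.704, 0.326 to 1.40) with 0 melanoma UMIs. Interferon response genes had 74 and 6 UMIs, 1959 and 764 CPM (ratio 0.390, 0.139 to 0.889). Among barcodes with 0 melanoma UMIs they had 16 and 4 UMIs, 1169 and 748 CPM (0.640, 0.156 to 1.98), an interval that includes equal levels. Endothelial genes went the other way, with 13 UMIs in 4 WT_lung and 16 in 2 PRF_lung barcodes, 14 of the 16 in 1. These intervals cover counting error within 1 pool per source, and no difference between genotypes was tested.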

How the data were processed

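Polyadenylated RNA and hashtags were measured in 1 pooled droplet run (10x 3' v3, per the labels' protocols). The authors deposited raw UMI counts, as a gene matrix and a matrix of 3 hashtags. Per the submitters' processing notes the build was mm10 and the tools included Seurat 4.3.0 and Cell Ranger 6.1.2. The file header gives Cell Ranger 6.0.0. The matrices hold called barcodes, and the smallest hashtag total was 503 counts. Metadata and an annotated object named in the labels were not used here.

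Barcodes were chosen and counts summed in Python 3.11.15 with NumPy 2.4.6, SciPy 1.17.1 and pandas 2.3.3. Levels are CPM with exact Poisson intervals, shares have exact Clopper-Pearson intervals, and ratios have exact conditional binomial intervals, all at 95% and for counting error only. Ratios of tested genes had 1 CPM added to each side, and 4-fold is a description. Zero counts have a floor of 3 UMIs. No doublets were removed. The code was tested on simulated data.

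Genes named were the 8 choosing and 3 melanoma genes, the 20 highest and 10 lowest ratios (ribosomal, mitochondrial and unnamed genes left out), up to 4 genes with most UMIs per list, defining markers and Prf1. Tmsb4x, Jund, Egr1, Fos, Srebf1, Col1a1, Dnajb1 and Cldn4 were named after their values were seen. Members and lists were chosen with earlier results of these data known. Alternatives changed the UMI, gene and mitochondrial limits, choosing genes, totals, comparison barcodes, expression minimum and added CPM.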

Additional observations from a re-analysis of the deposited data

How the results depend on the processing

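The 79 barcodes became 16 with at least 500 genes, and the other limits left that count within 1.5 times. WT_lung became 23 among barcodes with 0 melanoma UMIs, an alternative chosen after seeing the data, and PRF_bone became 1 with a minimum of 2 UMIs of the 8 genes. Melanoma CPM, 4071 in the report, was 5210 with a minimum of 2, 2728 with a minimum of 5 or without Sftpc, 7936 with 500 genes, 2209 as a mean of barcode shares and 5228 with mitochondrial and choosing-gene UMIs left out of totals. Barcodes with 0 melanoma UMIs went from 46 to 1 with 500 genes. Type 2 CPM, 34997 in the report, was 26861 with a minimum of 2, 39348 with a minimum of 5 or without Sftpc, 10636 with 500 genes, 36900 without the deepest barcode, 45874 as a mean of shares, 44938 with the reduced totals and 52661 with 0 melanoma UMIs. Genes at least 4-fold higher went from 79 to 43 with 500 genes, 161 and 37 with expression minimums of 50 and 200 CPM, and 148 with 0 melanoma UMIs. Those lower went from 35 to 7 and 62 with minimums of 2 and 5, 62 without Sftpc, 20 with 500 genes, 98 as a mean of shares, 20 with the reduced totals, 109 and 8 with 50 and 200 CPM, and 259 with 0 melanoma UMIs. The share of other barcodes with an epithelial UMI went from 2.76% to 0.431% after thinning. The log2 ratio of Lyz1 reversed to -0.12 with 500 genes, which left none of its 10 barcodes. Of 1176 named-gene alternatives, 629 kept within counting error, 546 moved and 1 reversed. Of 312 for the other lists, 251 kept within it, 61 moved and 0 reversed. The cause of these moves was not tested. A minimum of 500 genes keeps only the deeper barcodes, most of which carried melanoma UMIs. No paired analysis was possible because each source is 1 pool with no replicate. With a median of 595 UMIs, a gene at 0 in all 79 barcodes could be at up to 44.1 CPM.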

Other observations

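Xist, the long noncoding RNA of the inactive X chromosome, was examined after its values were seen. It had 15 UMIs in 11 of the 79 lung epithelial barcodes (220 CPM, 123 to 364), with at most 3 in any barcode, and 15 UMIs in all 15353 comparison barcodes (0.442 CPM). The marker-poor barcodes stood between, at 47.3 CPM.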
